A study of Mus musculus with 4 samples.

Results

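Integrins are matrix receptors built from 1 α and 1 β subunit, and the 8 subunit genes described here encode receptors that recognise the arginine-glycine-aspartate (RGD) motif of fibronectin, vitronectin and related proteins. They are Itga5, Itga8 and Itgav on the α side and Itgb1, Itgb3, Itgb5, Itgb6 and Itgb8 on the β side. The 8 genes were listed by name, and each was read from its single probe set, so that all 8 of 19938 named genes on the array were found. RNA came from Py2T cells, a mouse breast cancer line established from a mammary tumour of an MMTV-PyMT transgenic mouse, all grown in DMEM with 10% FCS. The 2 untreated arrays were set against 2 arrays of cells that received TGFβ at 2 ng/ml for 5 days, and no other agent or allele distinguishes the groups. Values are log2 expression after robust multi-array averaging (RMA), with array medians between 6.742 and 6.756 and a median over all values of 6.751.

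RGD-binding integrins hold cells to the matrix and, through their short tails, link it to actin. The α5β1 pair is the main fibronectin receptor, α8β1 binds nephronectin, and αvβ3 and αvβ5 are the classical vitronectin receptors. The αvβ6 and αvβ8 pairs bind the RGD motif in the propeptide of latent TGFβ and release the active cytokine, and αvβ6 is known from epithelia. Because Itgav serves several β partners, the level of each β gene bears on which αv receptor a cell can assemble.

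After TGFβ, Itgb3 rose 10.6-fold, Itga5 rose 4.36-fold and Itgb1, the β partner of Itga5, rose 1.76-fold, whereas Itga8 fell 9.38-fold and Itgb6 fell 6.25-fold. The treated means of Itga8 and Itgb6 lay under the median of all values and the untreated mean of Itgb3 close to it, so background limits these 3 folds and their order. Itgav, Itgb5 and Itgb8 were not called. In limma's moderated test with Benjamini-Hochberg adjustment over all genes, 3 of 8 rose and 2 of 8 fell at an adjusted p under 0.05, against 6.49% and 7.15% of all genes. The share called was therefore 62.5%, beside 13.6% over all genes. With at least a 2-fold difference 4 of the 8 were called, beside 3.40%. The genes were chosen with earlier results of these data known, so these shares describe the list only. In 6 of the 8 the untreated and the TGFβ arrays did not overlap, which was also so for 52.6% of all genes. The median log2 difference of the 8 genes was 0.08, with 0.01 over all genes, since rises and falls offset each other.

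**Figure D1:**
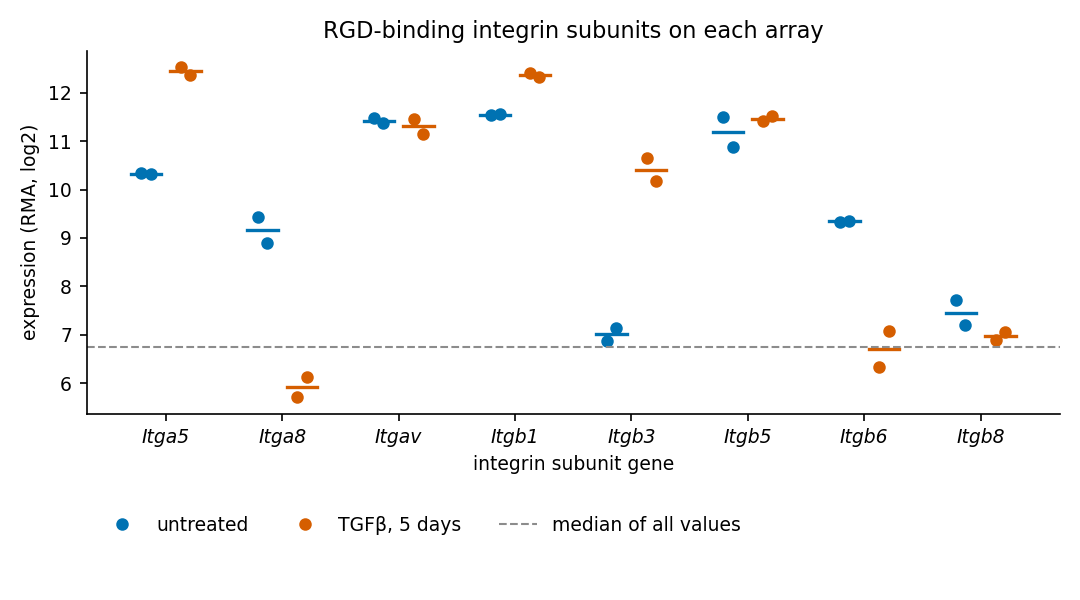
RMA log2 expression (vertical axis) of the 8 integrin subunit genes on each of the 4 arrays. Points are arrays, short lines are means of 2 arrays, and the dashed line is the median of all values, 6.751. Itga5, Itgb1 and Itgb3 lie higher on both TGFβ arrays, Itga8 and Itgb6 lie lower, and the groups overlap for Itgav and Itgb5.

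The promoters of the called genes are shown because these are the regions just upstream of the genes that changed. The 250 bases before each RefSeq start (mouse build GRCm38.p6) were available for 7 of the 8 genes, Itgb3 being the one without an entry. They were searched on both strands for 4 short motifs: TEAD (GGAATG), the family of Tead2 named in the study's title, Smad (CAGAC), the E-box of Zeb and Snail factors (CAGGTG) and AP-1 (TGANTCA). Capitals below mark every match, and none of the matches shown overlaps another. Each line reads 5′ to 3′ on the gene's strand.
Itga5 (chr15:103366792-103367041, minus strand): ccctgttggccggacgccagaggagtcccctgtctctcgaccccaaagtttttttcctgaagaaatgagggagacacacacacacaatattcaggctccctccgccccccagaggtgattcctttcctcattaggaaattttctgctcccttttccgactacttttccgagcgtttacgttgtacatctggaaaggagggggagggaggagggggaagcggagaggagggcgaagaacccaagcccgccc
Itgb1 (chr8:128685404-128685653, plus strand): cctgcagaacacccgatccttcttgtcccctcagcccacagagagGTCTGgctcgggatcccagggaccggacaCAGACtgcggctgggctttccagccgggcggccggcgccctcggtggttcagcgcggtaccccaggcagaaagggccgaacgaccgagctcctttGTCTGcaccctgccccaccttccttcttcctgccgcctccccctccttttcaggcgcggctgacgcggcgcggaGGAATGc
Itga8 (chr2:12301945-12302194, minus strand): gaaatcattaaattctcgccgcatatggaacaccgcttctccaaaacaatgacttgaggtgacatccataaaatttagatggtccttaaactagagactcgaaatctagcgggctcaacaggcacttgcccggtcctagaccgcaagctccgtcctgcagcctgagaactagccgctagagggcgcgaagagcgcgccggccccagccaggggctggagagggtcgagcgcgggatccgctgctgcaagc
Itgb6 upstream start (chr2:60722604-60722853, minus strand): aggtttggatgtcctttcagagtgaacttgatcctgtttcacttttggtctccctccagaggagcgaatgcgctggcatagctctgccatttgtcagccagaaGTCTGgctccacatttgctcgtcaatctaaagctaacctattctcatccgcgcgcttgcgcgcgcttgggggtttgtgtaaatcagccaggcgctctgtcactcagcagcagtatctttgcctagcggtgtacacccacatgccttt
Itgb6 downstream start (chr2:60673694-60673943, minus strand): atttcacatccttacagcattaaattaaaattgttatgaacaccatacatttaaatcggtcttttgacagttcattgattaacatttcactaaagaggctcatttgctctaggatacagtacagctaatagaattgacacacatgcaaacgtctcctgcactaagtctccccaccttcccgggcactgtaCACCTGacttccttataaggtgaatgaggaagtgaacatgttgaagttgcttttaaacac

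Itgb1 held 1 TEAD match, 7 bases before the start, and 3 Smad matches, 205, 176 and 81 bases before it. The upstream Itgb6 start held 1 Smad match at 147 bases and the downstream start held 1 E-box at 60 bases. The windows of Itga5 and Itga8, which changed in opposite directions, held none of the 4 motifs. Of the uncalled genes, Itgb8 held 1 Smad match and 1 E-box, Itgb5 held 1 E-box and Itgav held none. Over all 32851 promoter windows of the same length, 12.6% held the TEAD letters, 42.2% the Smad letters, 17.2% the E-box and 6.75% the AP-1 letters. A match is a run of letters and was not measured as a binding site.

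Itga5 pairs only with Itgb1 and gives the receptor its preference for fibronectin. Its values were 10.33 and 10.31 in untreated cells and 12.53 and 12.37 after TGFβ. Both TGFβ arrays stood at least 2.04 above both untreated arrays, many times the spread within either group. The difference was 2.13 ± 0.08 (SE; 95% interval 1.92 to 2.33, adjusted p = 2.6e-04). Itgb1, the shared β subunit of α5, α8, αv and most laminin and collagen receptors, read 11.53 and 11.56 untreated and 12.40 and 12.32 after TGFβ. The groups were again apart, by at least 0.76. Its difference was 0.81 ± 0.08 (SE; 95% interval 0.63 to 0.999, adjusted p = 0.0024), beside 2.13 for Itga5.

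Itga8, the other α subunit here that pairs only with Itgb1, moved the opposite way to Itga5. Untreated cells read 9.43 and 8.89, and TGFβ-treated cells read 5.71 and 6.14. Both treated values lay below the array median, where background limits the fold. Itga8 fell by 3.23 ± 0.21 on the log2 scale (SE; 95% interval -3.76 to -2.70, adjusted p = 8.7e-04).

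Itgb3 was the other member with a difference of over 3 on the log2 scale, upward where Itga8 went down. Its product joins αv in the vitronectin receptor, and joins Itga2b in the fibrinogen receptor of platelets. It read 6.88 and 7.14 in untreated cells, close to the array median, and 10.64 and 10.18 after TGFβ. The lower treated array was 3.04 above the higher untreated one. The difference was 3.40 ± 0.17 (SE; 95% interval 2.98 to 3.83, adjusted p = 4.9e-04), and the low untreated level limits how exactly the fold can be stated. Itga2b stayed near the array median on all arrays and differed by 0.07 (adjusted p = 0.73; -0.0023 without untreated replicate 1), and the platelet genes Gp9 and Pf4 lay between 4.652 and 5.833 on every array.

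Itgb6, the epithelial partner of αv that activates latent TGFβ, was evenly measured in untreated cells at 9.34 and 9.36. It read 6.34 and 7.07 after TGFβ, so the treated arrays were further apart (SD 0.51) than the untreated ones (SD 0.01), with TGFβ replicate 1 the lower. All the same, both lay at least 2.27 below the untreated arrays. Itgb6 fell by 2.64 ± 0.23 on the log2 scale (SE; 95% interval -3.20 to -2.09, adjusted p = 0.0019), with a treated mean of 6.70 just under the array median, where background limits the fold.

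Itgav, the αv subunit common to Itgb3, Itgb5, Itgb6 and Itgb8, read 11.47 and 11.37 in untreated cells and 11.45 and 11.16 after TGFβ. These ranges overlap, and the difference of -0.12 had a 95% interval of -0.40 to 0.17 (adjusted p = 0.64). That interval does not reach the differences of its partners Itgb3 and Itgb6. Without TGFβ replicate 2 the difference was 0.03, and it was not called there either.

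Itgb5, the other vitronectin-binding partner of αv, read 11.49 and 10.88 untreated and 11.41 and 11.51 after TGFβ. Untreated replicate 2 stood apart from the other 3 arrays, and the groups overlap. The difference was 0.28 (95% interval -0.20 to 0.75, adjusted p = 0.49), became 0.58 and was called without untreated replicate 1 (adjusted p = 0.040), and became -0.03 without untreated replicate 2 (adjusted p = 0.95). Itgb8, the other partner of αv that acts on latent TGFβ, read 7.72 and 7.19 untreated and 6.89 and 7.05 after TGFβ. The groups do not overlap, but the gap of 0.15 was smaller than the spread of the untreated pair (SD 0.37). Its difference of -0.49 (95% interval -0.93 to -0.05) did not pass over all genes (adjusted p = 0.15). Leaving out untreated replicate 2 gave -0.76, which was called (adjusted p = 0.021), and leaving out untreated replicate 1 gave -0.23 (adjusted p = 0.42).

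**Figure D2:**
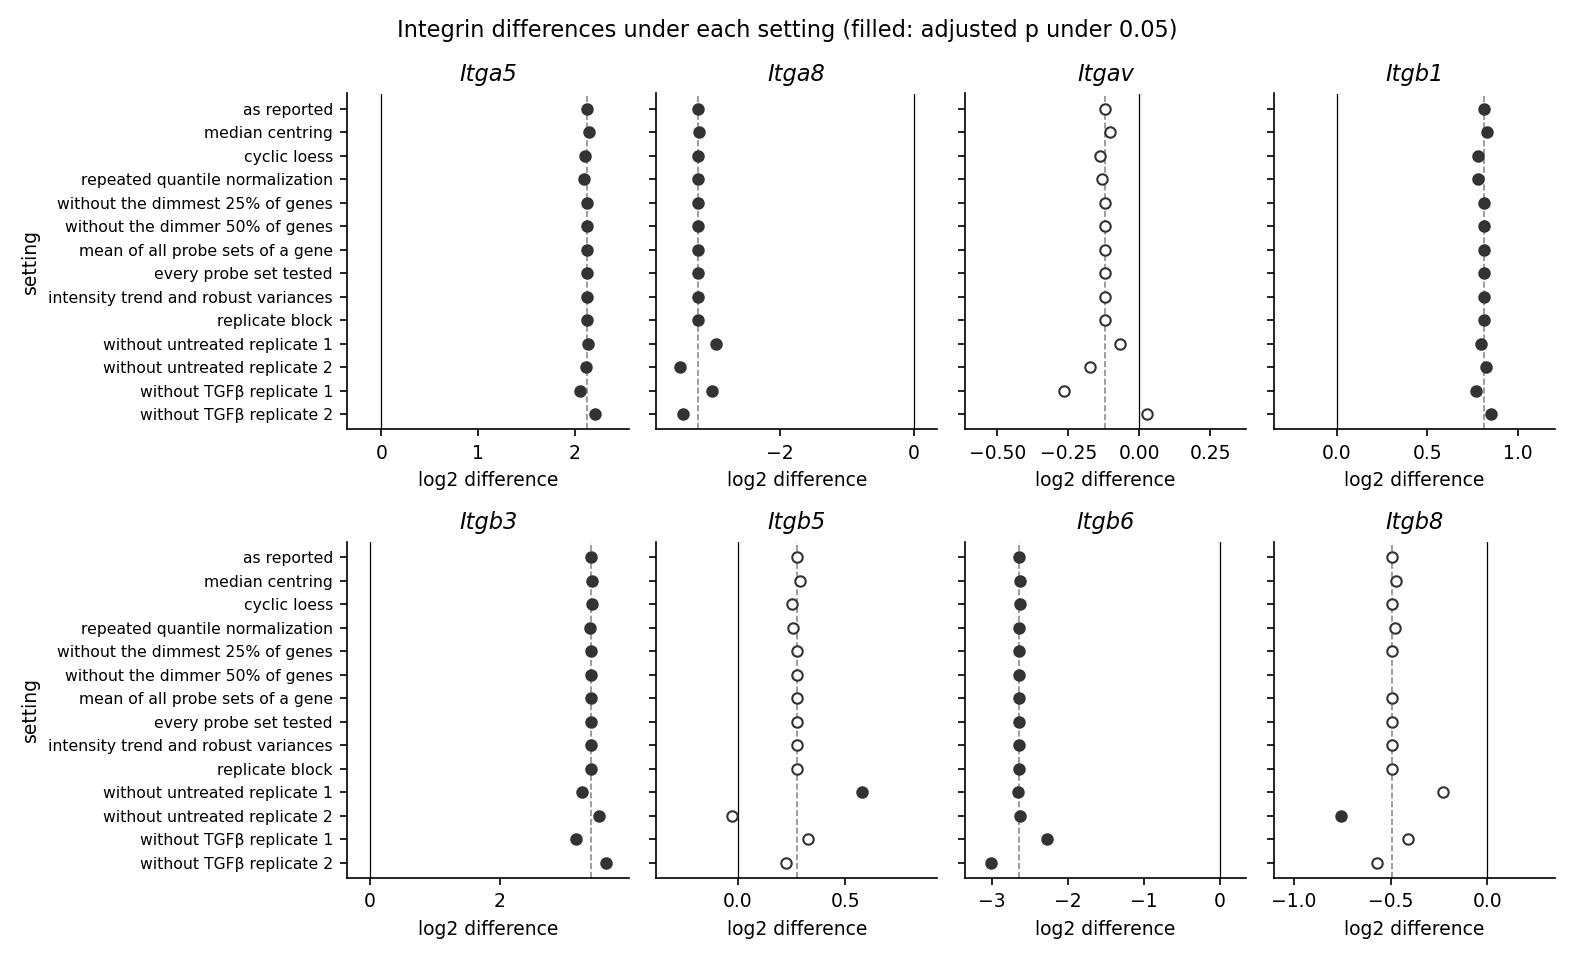
Log2 difference (TGFβ minus untreated, horizontal axis, scaled for each gene) of the 8 integrin genes under the reported setting and 13 alternatives (vertical axis). Filled points have an adjusted p under 0.05, the dashed line is the reported value, and a missing point is a gene left out by a filter. Itga5, Itga8, Itgb1, Itgb3 and Itgb6 are filled in every setting drawn, whereas Itgb5 and Itgb8 move with the untreated array left out.

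The remaining 18 integrin subunits give the setting for these changes. Among them 1 rose, 5 fell and 12 were not called, or 33.3% called beside 13.6% of all genes. Their median log2 difference was -0.01. Both of the group means lay under the median of all values in 9 of the 18, where a change would be hard to see. The collagen receptor subunit Itga2, another partner of Itgb1, rose by 0.55 (adjusted p = 0.0073). The laminin receptor subunits Itga6 and Itgb4, which form the hemidesmosome integrin, fell by 0.97 (adjusted p = 0.0048) and by 1.41 (adjusted p = 6.2e-04).

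Itga3, also a laminin-binding subunit, differed by -0.34 (adjusted p = 0.032). Leaving out any single array ended the call, at adjusted p = 0.15 (untreated replicate 1), 0.14 (untreated replicate 2), 0.089 (TGFβ replicate 1) and 0.095 (TGFβ replicate 2). So did median centring (adjusted p = 0.051), testing every probe set (adjusted p = 0.079) and the replicate block (adjusted p = 0.086). Itgb7 and Itgb2, β subunits best known from leukocytes, fell by 1.06 (adjusted p = 0.015) and by 0.92 (adjusted p = 0.026). With every probe set tested these became adjusted p = 0.066 and 0.092, and Itgb2 was also not called with the replicate block (adjusted p = 0.069) and when untreated replicate 1 (-0.83, adjusted p = 0.096) or 2 (-1.001, adjusted p = 0.051) was left out. Their 6 α partners, Itgal, Itgam, Itgax, Itgad, Itga4 and Itgae, lay between 5.267 and 7.358 on all arrays, with 5 of the 6 under the array median throughout.

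**Figure D3:**
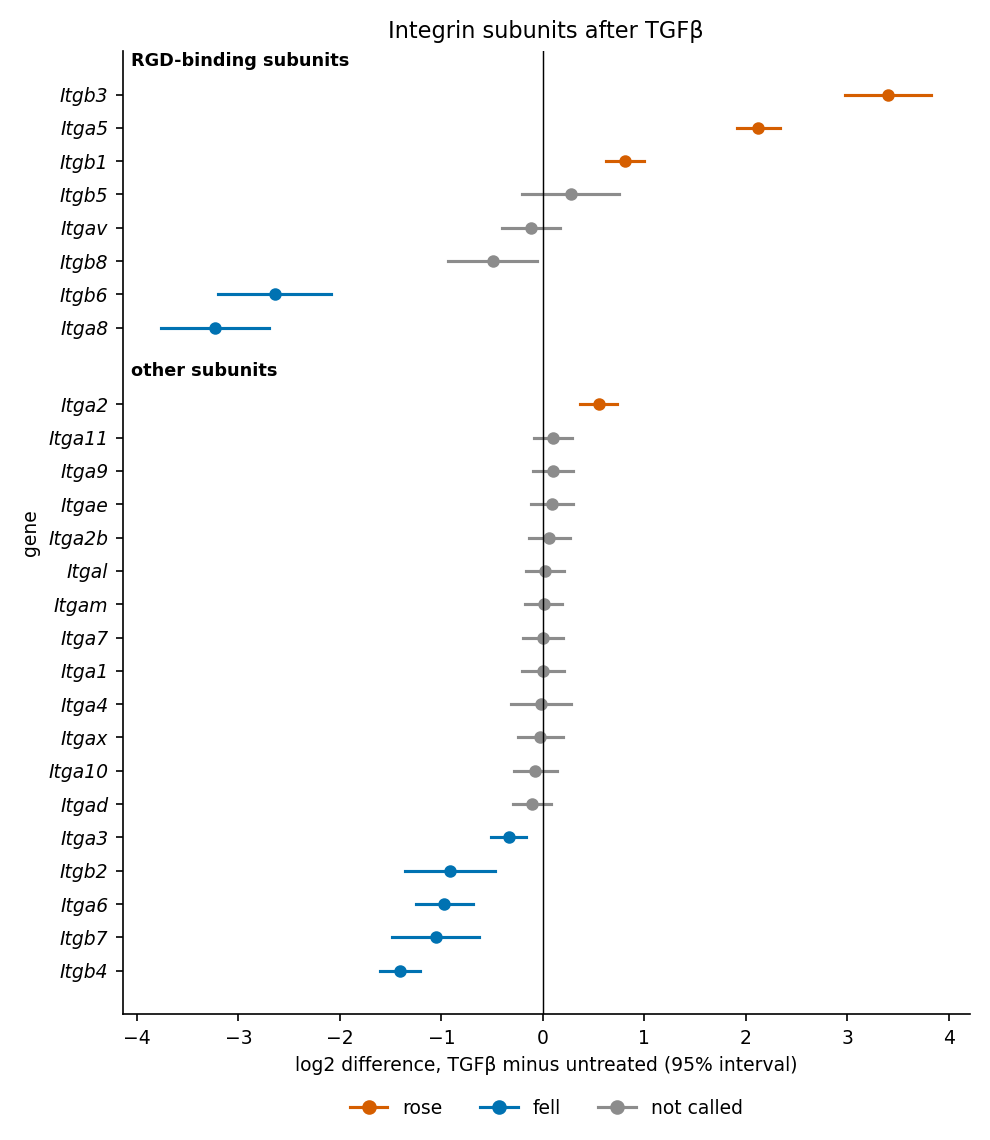
Log2 difference after TGFβ (horizontal axis, point) with its 95% interval (line), sorted within each set. The sets (vertical axis) are the 8 RGD-binding subunits described here and the 18 other integrin subunits. The other subunits include Itga2b, the platelet partner of Itgb3. Itgb3 at 3.40 and Itga8 at -3.23 are the ends of the range, and most of the other subunits lie close to 0.

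Markers were read beside these values to see which cells the RNA came from. Of 6 epithelial markers, 4 fell (Cdh1, Epcam, Cldn7 and Ocln) and 0 rose, beside 7.15% and 6.49% of all genes. The keratins Krt8 and Krt18 differed by 0.06 (adjusted p = 0.75) and -0.11 (adjusted p = 0.45). Leaving out untreated replicate 1 gave -1.24 for Cdh1 (adjusted p = 0.057), which was also not called with every probe set tested (adjusted p = 0.072). The list's mean log2 level was 11.60 to 11.73 untreated and 10.23 to 10.55 after TGFβ. The 4 endothelial markers lay between 5.025 and 6.336 throughout, and Ptprc, the pan-leukocyte marker, between 5.492 and 5.565. Of the 7 leukocyte and platelet markers 0 were called, beside 13.6% of all genes. Their mean level was 6.325 to 6.506 untreated and 6.120 to 6.274 after TGFβ. Within that list the lysosomal gene Cd68 differed by -1.29 (adjusted p = 0.052). With an array left out Cd68 ranged from -1.67 to -0.91: it was called with untreated replicate 2 (adjusted p = 0.025) or TGFβ replicate 2 left out (adjusted p = 0.031), and not with untreated replicate 1 (adjusted p = 0.14) or TGFβ replicate 1 left out (adjusted p = 0.15). It was also called after median centring (adjusted p = 0.030) and without the dimmest 25% (adjusted p = 0.035) or dimmer 50% of genes (adjusted p = 0.032). Of 5 fibroblast markers 1 rose, beside 6.49% of all genes. This was Col1a1, by 0.46 (adjusted p = 0.027). Their mean level was 6.681 to 6.751 untreated and 6.814 to 6.983 after TGFβ, but the list was split. Col1a1, Col1a2 and Pdgfra, 3 of the 5, lay above the median of all values on every array. Dpt and Dcn, the other 2, had both group means under it. Pdgfra differed by 0.49 (adjusted p = 0.097) and Col1a2 by 0.07 (adjusted p = 0.76). All samples were Py2T cells, and the part of any other cells in the integrin values was not tested. A change in the number of Py2T cells in a given state cannot be told apart here from a change in RNA per cell.

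Among the ligands of these receptors, Tnc, Edil3, Fn1 and Tgfb1 rose and Npnt fell. These are 4 and 1 of 9 measured RGD ligands, beside 6.49% and 7.15% of all genes, with 4 not called and a median of 0.16. With the replicate block, or with every probe set tested, 3 of the 9 were called, without Fn1 and Tgfb1. Spp1 and Fbn1 were not analysed here. Tnc, the matrix protein tenascin C, read 12.38 and 12.34 in untreated cells and 13.22 and 13.17 after TGFβ, and rose by 0.84 (adjusted p = 0.0020). Edil3, a secreted RGD protein that binds αvβ3 and αvβ5, rose by 1.30 (adjusted p = 0.0027), from a low level of 5.95 and 5.65 to 7.19 and 7.003. The fall was that of Npnt, nephronectin, the ligand of α8β1. It read 9.65 and 9.87 in untreated cells and 7.41 and 7.39 after TGFβ, and fell by 2.36 (adjusted p = 2.8e-04), so that Npnt and its receptor subunit Itga8 were both lower.

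Fn1, the ligand of α5β1, rose by 0.42 (adjusted p = 0.020) from 13.30 and 13.21 to 13.68 and 13.67, close to the highest value on the arrays. The call ended when any single array was left out, at adjusted p = 0.063 (untreated replicate 1), 0.11 (untreated replicate 2), 0.068 (TGFβ replicate 1) and 0.057 (TGFβ replicate 2). It also ended with the replicate block (adjusted p = 0.058) and with every probe set tested (adjusted p = 0.061). Vtn, the ligand of αvβ3 and αvβ5, lay between 5.94 and 6.02 on all arrays, under the array median, and differed by 0.01 (95% interval -0.17 to 0.20). The bridging protein Mfge8 differed by 0.16 (adjusted p = 0.55) and the bone sialoprotein gene Ibsp, dim on all arrays, by -0.0018 (adjusted p = 0.996).

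The list for the latent TGFβ complex, which αvβ6 and αvβ8 act on, also held genes outside the complex itself, such as Furin and Thbs1. Of its 12 measured genes 3 rose, 1 fell and 8 were not called. The share called was 33.3%, beside 13.6% of all genes, and the median was 0.06. Lrrc32, which tethers latent TGFβ to the cell surface, read 6.25 and 6.65 in untreated cells and 8.99 and 9.21 after TGFβ. The groups are far apart, with a rise of 2.65 ± 0.15 (SE; adjusted p = 6.2e-04), from an untreated level under the array median. Furin, the protease that cuts the TGFβ precursor, rose by 1.14 (adjusted p = 0.0039). Tgfb1, whose propeptide carries an RGD motif, rose by 0.61 (adjusted p = 0.029). It was 0.49 and not called with untreated replicate 2 left out (adjusted p = 0.10) and with TGFβ replicate 2 left out (adjusted p = 0.084). It was not called with the replicate block (adjusted p = 0.089) or with every probe set tested (adjusted p = 0.094). Tgfb3, the other ligand with that motif, differed by -0.05 (95% interval -0.35 to 0.25). Thbs1, thrombospondin 1, which can also activate latent TGFβ, fell by 0.59 (adjusted p = 0.012). Leaving out untreated replicate 1 gave -0.56 and adjusted p = 0.061.

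Of 17 measured genes listed under integrin activation and linkage, 3 rose, 1 fell and 13 were not called. The list was broad, with Itgb1bp1, Sharpin, Kank1, Kank2 and Cd47 in it, and its genes need not act on integrins in the same direction. The share called was 23.5%, beside 13.6% of all genes, and the median was 0.13. Ptk2 was not analysed here. The kindlins Fermt1 and Fermt2, which bind β tails together with talin, rose by 1.30 (adjusted p = 0.0022) and by 0.88 (adjusted p = 0.0084). Fermt1 read 10.94 and 10.78 untreated and 12.30 and 12.02 after TGFβ. Tln2, the second talin, rose by 1.62 (adjusted p = 0.0056), from 6.71 and 6.94 to 8.73 and 8.16. Its untreated values lay close to the array median, which limits how exactly the difference can be stated. Tln1, brighter on all arrays, differed by 0.08 (adjusted p = 0.60). Lims1, the LIM protein PINCH1 that joins integrin-linked kinase, fell by 0.51 (adjusted p = 0.019). Leaving out untreated replicate 1 gave -0.53 (adjusted p = 0.073), leaving out untreated replicate 2 gave -0.49 (adjusted p = 0.084), and leaving out TGFβ replicate 2 gave -0.41 (adjusted p = 0.053). It was not called with the replicate block (adjusted p = 0.057) or with every probe set tested (adjusted p = 0.067).

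**Figure D4:**
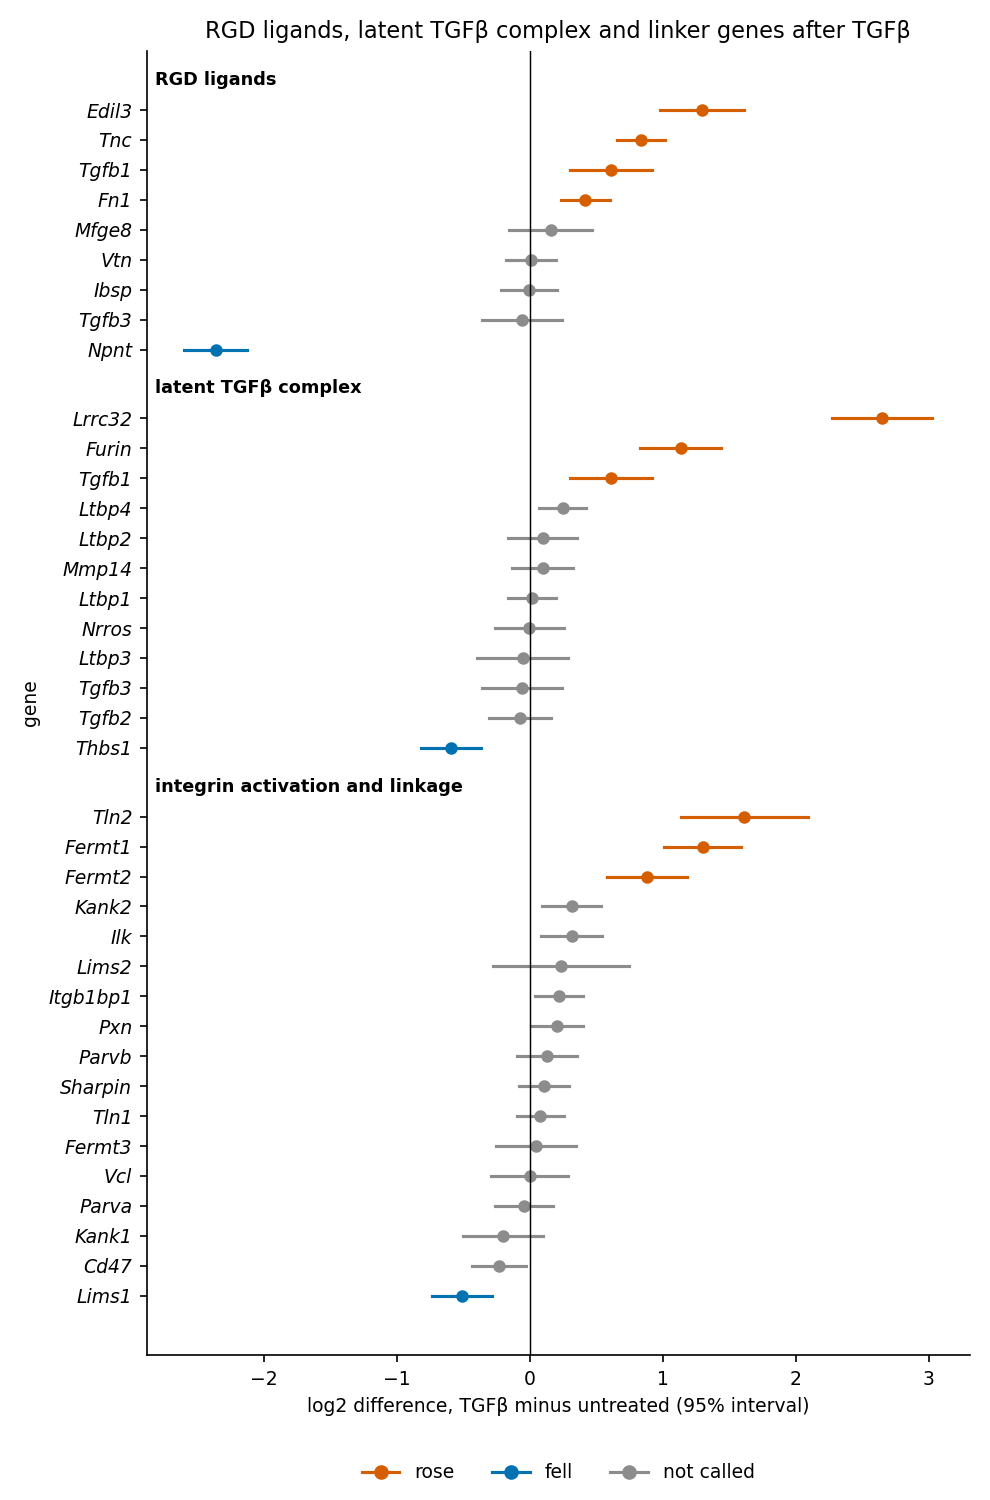
Log2 difference after TGFβ (horizontal axis, point) with its 95% interval (line), by gene (vertical axis). The sets are the RGD ligands, the genes listed with the latent TGFβ complex, and the genes of integrin activation and linkage. Tgfb1 and Tgfb3 stand in both of the first sets. Npnt at -2.36 and Lrrc32 at 2.65 lie farthest from 0.

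The genes whose values over the 4 arrays lay nearest to those of each strongly changed integrin were listed, by Euclidean distance after centring each gene on its own mean. Genes with names that start with LOC or with Gm and a digit, or end in Rik, were left out of this search. Nearest to Itga5 were Dlg4, a synaptic scaffold protein (distance 0.134), the actin-binding protein gene Cotl1 (0.162) and Pate14 (0.165). Nearest to Itga8 were the tight junction gene Ocln (0.169), the ectoenzyme gene Bst1 (0.223) and the epoxide hydrolase gene Ephx1 (0.316). For Itgb6 they were the aldehyde dehydrogenase gene Aldh3a1 (0.153), the neurotrophin receptor gene Ngfr (0.200) and the tricellular junction gene Marveld2 (0.210). None of the genes searched came as near to Itgb3. The closest to it were Havcr2 (0.429), the growth factor gene Pdgfc (0.430) and Dgkk (0.435), with differences of 3.08, 3.43 and 3.59. With 4 arrays, this distance mostly compares the size of the TGFβ difference and describes these arrays only.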

How the data were processed

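Total RNA from 4 samples of Py2T cells was measured on Affymetrix arrays, after amplification of 100 ng and biotin labelling per the labels' protocols. The deposited log2 values per probe set were made by the authors with RMA in the oligo package, per the submitters' processing notes, without a version. Probe sets were named from the platform's gene table, and 21789 with 1 symbol gave 19938 genes, each represented by its brightest probe set. The model of treatment was fitted per gene in limma 3.58.1 under R 4.3.3 (2 residual and 3.77 prior degrees of freedom, two-sided), without further normalization or filter, and checked on simulated data. With 2 arrays in each group the smallest two-sided p of an exact permutation test is 0.333, so none was used. The labels call the arrays biological replicates but do not say that cultures were separate. Each SE and p-value rests on the spread between these arrays, drawn toward a spread shared over all genes. The SE of a gene therefore differs from that of its 4 arrays alone, whose number limits precision. The genes, lists and alternatives were chosen with earlier results of these data known. All 8 integrins, called list genes, all RGD ligands and the 3 nearest profiles of integrins called with at least 2-fold were named. The epithelial markers, Itga2b, Cd68, Csf1r, Tln1, the named fibroblast markers and the α partners of Itgb2 and Itgb7 were added after their values were seen. No detection calls were used.

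Alternatives were 3 further normalizations, filters on the dimmest 25% and the dimmer 50% of genes, averaging a gene's probe sets, testing every probe set, a variance trend with intensity fitted robustly, the replicate block, and leaving out each array.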

Additional observations from a re-analysis of the deposited data

How the results depend on the processing

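The calls of Itga5, Itga8, Itgb1, Itgb3 and Itgb6 kept their direction and stayed past the threshold in all 13 alternatives, the highest adjusted p being 0.0049, 0.011, 0.016, 0.0072 and 0.018. Over these alternatives Itgb3 ranged from 3.17 to 3.63 and Itgb6 from -3.01 to -2.28. The filters, both probe set settings, the variance trend and the replicate block left the differences of these 5 genes unchanged. Under those settings only the p-values could move, and direction was not put to a test. With each array left out, Itgb5 ranged from -0.028 to 0.58, Itgav from -0.26 to 0.027 and Itgb8 from -0.76 to -0.23. Itgb8 is absent from the test without the dimmer 50% of genes. The number of integrins called was 5, or 6 without either untreated array. Over all genes 2720 were called, 1268 with every probe set tested, 1624 with the replicate block, and 1535 to 2260 without an array. The other integrin subunits went from 6 called to 3 with every probe set tested, and the RGD ligands from 5 to 3 with every probe set tested and with the replicate block and to between 3 and 4 without an array. The labels do not say whether same-numbered arrays were paired, and the block ended no call among the 8 integrins. The deviations of same-numbered arrays correlated at -0.21, and a crossed pairing, chosen after seeing the data, gave 3640 calls, 6 of them among the 8 integrins. Uncalled genes near 0 changed sign in places. With an array left out Vtn ranged from -0.024 to 0.048, Ibsp from -0.076 to 0.072, Tgfb3 from -0.19 to 0.082 and Itga2b from -0.0023 to 0.13. Vtn was also -0.0010 with cyclic loess, and Ibsp 0.015 after median centring. The lone array of a group is assumed to vary like the other group.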
